A study of Arabidopsis thaliana with 8 samples.

Results

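The genes described here are the 10 Arabidopsis thaliana genes of brassinosteroid synthesis and breakdown in the deposited tables, taken by gene identifier from a list of named enzymes whose selection rule uses no measured value, though the list was drawn up with earlier results of these data known. They are DWF5 (AT1G50430), DWF1 (AT3G19820), DET2 (AT2G38050), DWF4 (AT3G50660), CPD (AT5G05690), ROT3 (AT4G36380), CYP90D1 (AT3G13730), BR6OX1 (AT5G38970), BR6OX2 (AT3G30180) and BAS1 (AT2G26710). They are 10 of the 37336 genes in the tables, and all 10 passed the filter on low counts that left 20346 genes to test.

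RNA from above-ground tissue was sequenced in 8 genotypes with 3 libraries each, 24 in all. Every genotype carries summ2-8, a mutation of the immune receptor gene SUMM2, and summ2-8 alone is the control. The other genotypes add pat1-1, path1-4 or path2-1, mutations of the mRNA decapping activator gene PAT1 and its relatives PATH1 and PATH2, as 3 singles (pat1-1, path1-4, path2-1), 3 doubles (pat1-1path1-4, pat1-1path2-1, path1-4path2-1) and the triple mutant pat1-1path1-4path2-1. Plants were grown for 6 weeks at 21 °C with 8 h of light and 16 h of dark, in pots of one of several sizes that the labels do not assign to genotypes. The labels call the libraries biological triplicates without saying whether a library is 1 plant or a pool, so p-values measure the spread between these libraries.

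Brassinosteroids are plant steroid hormones that drive cell expansion in leaves and stems, and plants that cannot make them are dwarfed. DWF5 and DWF1 finish the membrane sterol campesterol, DET2 and a chain of cytochrome P450 enzymes (DWF4, CPD, ROT3, CYP90D1, BR6OX1 and BR6OX2) turn it into castasterone and brassinolide, and BAS1 hydroxylates the active hormones into inactive forms. In the textbook feedback loop, the transcription factors BZR1 and BES1, which the hormone activates, repress several of the synthesis genes.

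Library totals ran from 14187145 to 39180748 counts, and replicate libraries correlated at 0.981 to 0.994 across genes. The targeted loci gave only a partial check of the labels. AT1G79090, the PAT1 locus, was at 75.3% of the control in pat1-1 (edgeR adjusted p = 0.0054), 63.5% in pat1-1path1-4 and 77.7% in the triple mutant, but at 90.3% and not called in pat1-1path2-1. AT3G22270, the PATH1 locus, stood at 78.0% of the control in path1-4 (adjusted p from edgeR 0.025), 78.6% in pat1-1path1-4 (0.00063) and 86.3% in the triple mutant, but at 93.6% and not called in path1-4path2-1. In pat1-1path2-1, which is not labelled with path1-4, AT3G22270 was called higher, at 131% (edgeR adjusted p = 0.00015). AT4G14990, the PATH2 locus, was at 105% and not called in path2-1, and was called higher, at 118%, in the triple mutant (edgeR adjusted p = 0.046). The PAT1 and PATH1 loci were thus below the control in all 4 genotypes labelled with their mutation but called lower in 3 of the 4. The PATH2 locus was called lower in none and higher in the triple mutant, and genotype names below are those of the labels. The path2-1 doubles stood apart from their singles: path2-1 alone had 0.0197% of tested genes called against the control, whereas adding path2-1 to pat1-1 changed 21.7% and adding it to path1-4 changed 18.3%. Fitting without both doubles ended 1 of the calls below that do not involve them, that of DET2 in pat1-1path1-4 against path1-4 (edgeR adjusted p = 0.07). The 5 leaf marker genes summed to 57684 to 74682 TPM over the libraries, but they moved apart in the triple mutant: CAB1 fell to 52.2% of the control (edgeR adjusted p = 6.9e-07), PSBO1 fell to 79.0% (0.0047), RBCS1A rose to 140% (0.012) and the other 2 were not called. CAB1 also fell in pat1-1 and in both doubles with pat1-1, and RBCS1A also rose in pat1-1path2-1 (143%, edgeR adjusted p = 0.012). Summed TPM of the root markers PYK10, CASP1 and RSL4 was 13.0 to 32.2 in the control, 33.5 to 53.7 in pat1-1, 31.9 to 59.9 in pat1-1path1-4, 23.6 to 34.5 in pat1-1path2-1 and 64.3 to 85.3 in the triple mutant, with RSL4 at 0 in every library and the other 2 called higher in pat1-1path1-4 and in the triple mutant. Summed TPM of the flower markers AG, AP3, PI, SEP3 and LFY was 1.09 to 1.29 in the control, 2.86 to 3.60 in pat1-1, 2.1 to 3.06 in pat1-1path1-4 and 0.882 to 1.23 in the triple mutant. AG and PI, the 2 flower markers tested, both rose in pat1-1 and pat1-1path1-4, whereas in the triple mutant AG fell to 24.3% (edgeR adjusted p = 5.8e-05) and PI rose to 633% (0.0013). The part of these markers in the results below was not tested. In whole tissue, fewer cells of a type and less RNA per cell cannot be told apart.

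The late oxidases changed most. In the triple mutant BR6OX2 was at 34.6% and BR6OX1 at 28.5% of the mean control TPM (the deposited level, scaled to transcript length and to the same library sum), while CYP90D1 was at 153%. CPD, DET2 and the breakdown gene BAS1 were lower by smaller amounts, and DWF4, ROT3, DWF1 and DWF5 did not pass the test in that genotype. In all, 6 of 10 genes were called in the triple mutant, 1 higher and 5 lower, where called means an edgeR quasi-likelihood p below 0.05 after Benjamini-Hochberg adjustment over all genes tested. In the same comparison 45.4% of all tested genes were called, 22.8% higher and 22.6% lower, so the number of called genes among these 10 is not far from the background. In CPM with the library scaling of the test (TMM), the same 6 genes had libraries that did not overlap the control, as did 52.4% of all tested genes. All 6 calls held in every alternative tried (other scalings, filters, fits and tests, and each library left out in turn).

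The members span a wide range of levels. Over the 24 libraries the mean TPM was 162 for CPD, 122 for DWF1, 79.9 for DWF5, 46.3 for DET2, 16.4 for BR6OX2, 14.5 for BAS1, 4.83 for CYP90D1, 4.55 for ROT3, 3.27 for DWF4 and 0.587 for BR6OX1, so both C-6 oxidases, the rate-limiting enzyme DWF4 and the paired side-chain hydroxylases ROT3 and CYP90D1 lay far below CPD. BR6OX1 rests on 7 to 36 counts per library and is the least precisely measured. The biological coefficient of variation is edgeR's estimate, moderated across genes, of the relative spread between replicates beyond counting noise. It was 6.78% for CYP90D1 and 13.0% for BR6OX1, the lowest and the highest of the 10, against 10.9% in common over all genes. With counting noise included, the spread of TPM within genotypes (median SD over mean) was 23.5% for BR6OX1, the highest, 11.1% for CYP90D1 and 3.98% for CPD, the lowest.

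**Figure D1:**
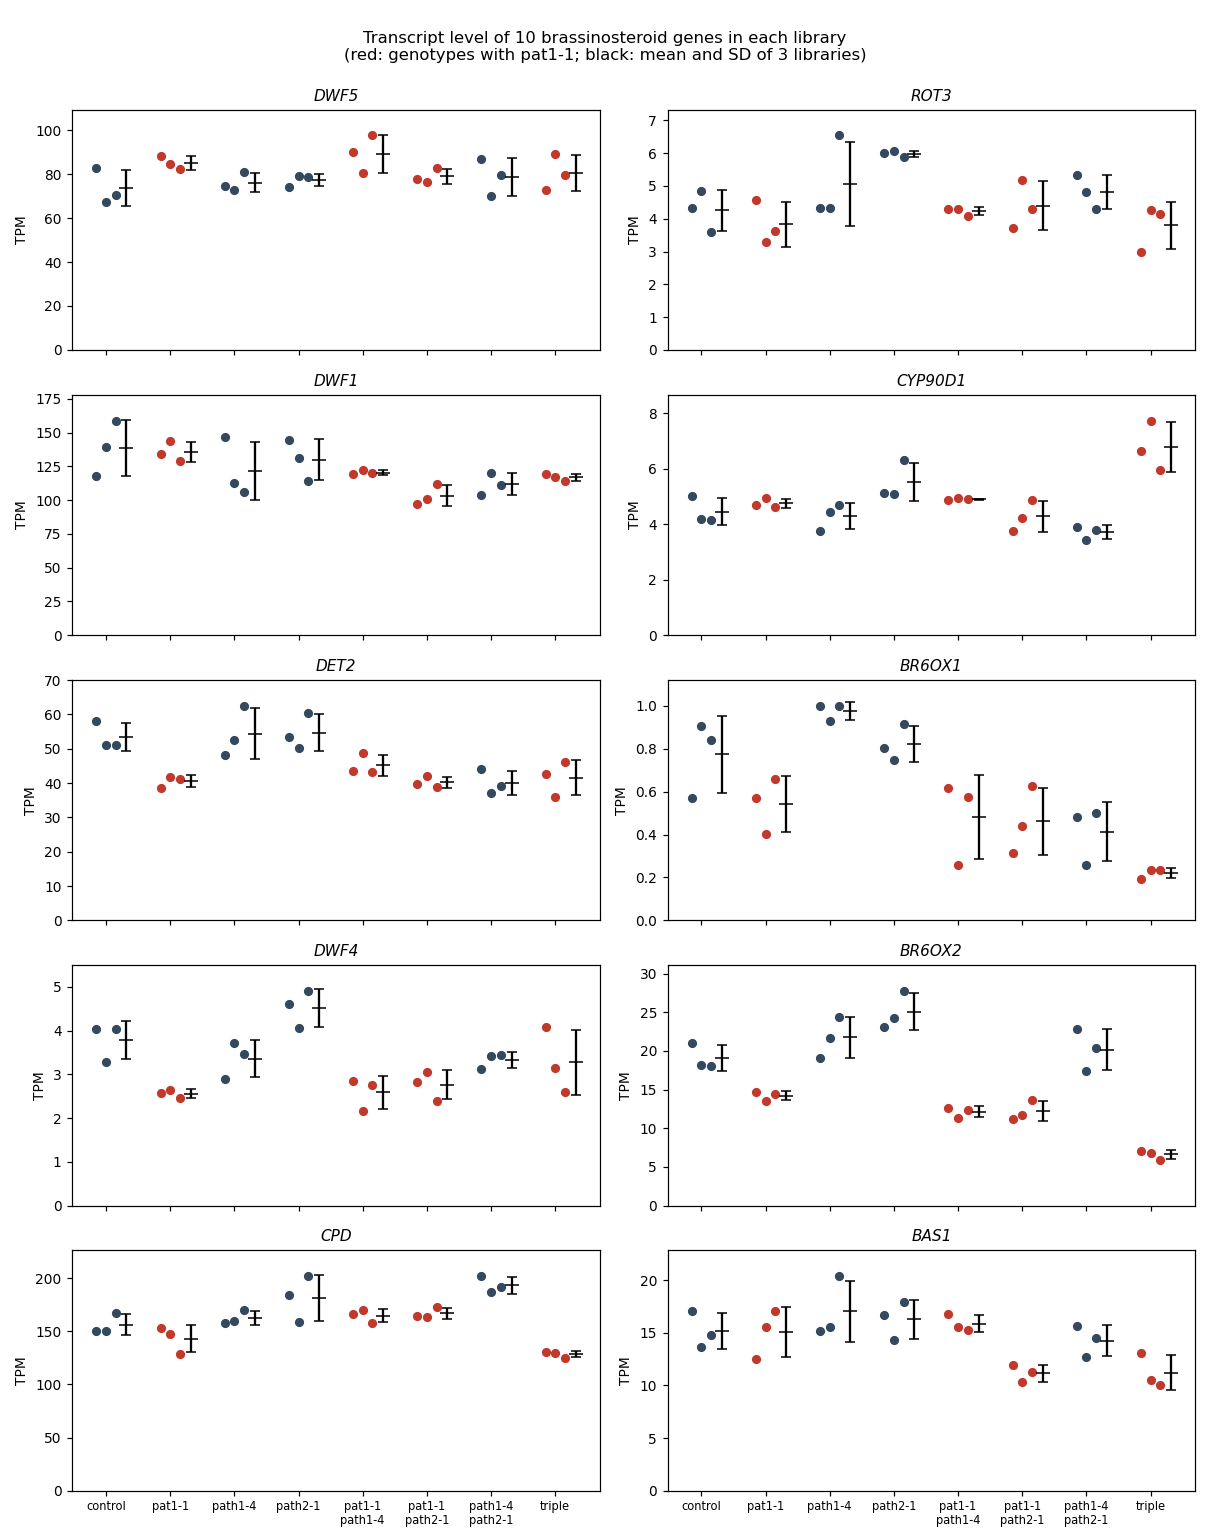
TPM of each of the 10 genes (vertical axes, each from 0) in the 24 libraries, grouped by genotype along the horizontal axes; each coloured point is 1 library, red where the genotype carries pat1-1, and the black mark gives the mean and SD of 3 libraries. BR6OX2 lies at 5.92 to 7.09 in the triple mutant and at 18.1 to 21.1 in the control, and CYP90D1 lies at 5.95 to 7.73 in the triple mutant and at 4.14 to 5.00 in the control.

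To show what lies in front of the genes that moved most, the 250 bases upstream of the outermost annotated start are printed for BR6OX2, BR6OX1 and CYP90D1, the largest changes in the triple mutant, and for DWF4, which fell in pat1-1. They are from RefSeq TAIR10.1, 5′ to 3′ on the gene's strand: BR6OX2 from chr3:11810476-11810725 (plus strand), BR6OX1 from chr5:15598090-15598339 (minus), CYP90D1 from chr3:4500921-4501170 (minus) and DWF4 from chr3:18817406-18817655 (minus). Capitals mark CANNTG, the E-box letters.
BR6OX2: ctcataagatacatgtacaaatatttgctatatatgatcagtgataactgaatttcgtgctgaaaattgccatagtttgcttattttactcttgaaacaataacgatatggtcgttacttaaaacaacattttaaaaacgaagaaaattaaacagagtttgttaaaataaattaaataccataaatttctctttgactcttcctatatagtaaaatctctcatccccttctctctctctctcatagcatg
BR6OX1: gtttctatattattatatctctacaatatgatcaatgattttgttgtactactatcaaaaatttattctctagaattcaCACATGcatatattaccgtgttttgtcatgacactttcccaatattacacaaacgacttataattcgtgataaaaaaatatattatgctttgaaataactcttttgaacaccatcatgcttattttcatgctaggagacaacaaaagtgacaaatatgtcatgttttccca
CYP90D1: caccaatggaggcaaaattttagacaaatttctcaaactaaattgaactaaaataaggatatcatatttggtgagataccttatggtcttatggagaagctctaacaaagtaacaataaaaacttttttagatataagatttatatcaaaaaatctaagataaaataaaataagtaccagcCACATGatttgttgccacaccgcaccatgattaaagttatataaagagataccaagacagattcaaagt
DWF4: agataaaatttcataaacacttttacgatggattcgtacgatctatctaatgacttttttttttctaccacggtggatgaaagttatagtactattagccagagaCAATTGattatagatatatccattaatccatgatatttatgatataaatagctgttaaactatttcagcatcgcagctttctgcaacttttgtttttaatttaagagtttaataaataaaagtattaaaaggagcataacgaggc

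The windows of all 10 genes were searched on both strands for CGTGCG and CGTGTG, the forms of the element that BZR1 is known to bind, for CACGTG (the G-box) and for CANNTG (the E-box, which includes every CACGTG). Neither CGTGCG nor CGTGTG occurred in any of the 10 windows, and 6.7% of 27443 protein-coding genes hold one or the other in a window of the same length. CANNTG occurred in 9 of 10 windows against 55.3% of all, and BR6OX2 was the gene without it. CACGTG occurred in 1 of 10 against 6.5% of all. That gene is DWF5, whose window overlaps the neighbouring gene AT1G50440. A pair of G-boxes 1 base apart lies at -48 to -36 from the DWF5 start (chr1:18685688-18685700, minus-strand gene), printed with the G-boxes in capitals.
DWF5: CACGTGaCACGTG
A match is a description of letters, and no match says only that these letters are not in this window.

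The sterol steps varied little. DWF5, the sterol reductase that acts just before DWF1, had TPM of 82.9, 67.4 and 70.6 in the control. The values were 88.3, 84.8 and 82.3 in pat1-1 and 89.8, 80.4 and 97.6 in pat1-1path1-4. The highest control library lay within the pat1-1 range, so the groups overlapped in TPM. In CPM with the library scaling of the test (TMM) they did not, with 87.3 in the highest control library and 90.4 in the lowest of pat1-1. Its log2 fold change was 0.23 ± 0.08 (SE) in pat1-1 (edgeR adjusted p = 0.035) and 0.28 ± 0.08 in pat1-1path1-4 (edgeR adjusted p = 0.010). The pat1-1 call ended without control replicate 2 (edgeR adjusted p = 0.195), without control replicate 3 (0.107), without pat1-1 replicate 1 (0.115) without pat1-1 replicate 2 (0.0929), with only the compared genotypes fitted (0.0733) and with no filter (0.0532). The pat1-1path1-4 call ended without control replicate 2 (edgeR adjusted p = 0.0791), without pat1-1path1-4 replicate 3 (0.0683) and with only the compared genotypes fitted (0.0632).

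DWF1, the reductase that makes campesterol, had TPM of 118, 140 and 159 in the control, 96.9, 101 and 112 in pat1-1path2-1 and 104, 120 and 111 in path1-4path2-1. All 3 pat1-1path2-1 libraries lay below the control, while the path1-4path2-1 libraries overlapped it. DWF1 fell in pat1-1path2-1 (log2 fold change -0.41 ± 0.13, edgeR adjusted p = 0.018) and in path1-4path2-1 (-0.37 ± 0.13, edgeR adjusted p = 0.045). Without control replicate 3, the highest of the control, the adjusted p was 0.105 and 0.213 in these genotypes. The pat1-1path2-1 call also ended without its replicate 1 (0.0691), and the path1-4path2-1 call ended in 16 alternatives in all. In the triple mutant, at 120, 117 and 114 TPM, DWF1 was at -0.27 ± 0.13 and not called (edgeR adjusted p = 0.084), but it was called without control replicate 1 (0.0159) or path1-4 replicate 1 (0.0386).

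DET2, the steroid 5-alpha reductase that opens the brassinosteroid-specific route, fell in 4 genotypes. TPM was 58.1, 51.1 and 51.0 in the control, 48.1, 52.7 and 62.5 in path1-4 and 53.5, 50.1 and 60.5 in path2-1. In the other 5 genotypes the means ran from 40.1 to 45.2, and none of their libraries reached the lowest control library, though the highest, 48.7 in pat1-1path1-4, passed the lowest path1-4 library. DET2 fell in pat1-1 (log2 fold change -0.37 ± 0.10, edgeR adjusted p = 0.0091), in pat1-1path2-1 (-0.38 ± 0.10, edgeR adjusted p = 0.0045), in path1-4path2-1 (-0.47 ± 0.10, edgeR adjusted p = 0.0017), and also in the triple mutant (-0.38 ± 0.10, edgeR adjusted p = 0.0028). In pat1-1path1-4 it was at -0.24 ± 0.10 and not called (edgeR adjusted p = 0.059), though 7 alternatives called it, with adjusted p from 0.0158 to 0.0491. Among the lower genotypes neighbours in the order overlapped.

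DWF4, the side-chain hydroxylase known as the rate-limiting step, had TPM of 4.04, 3.28 and 4.03 in the control. They were 2.57, 2.64 and 2.45 in pat1-1 and 2.85, 2.16 and 2.75 in pat1-1path1-4. In pat1-1path2-1 it was 2.83, 3.06 and 2.40, and in the triple mutant 4.08, 3.14 and 2.60. The pat1-1 single and both doubles with pat1-1 lay wholly below the control, whereas the triple mutant overlapped it. DWF4 fell in pat1-1 (log2 fold change -0.54 ± 0.15, edgeR adjusted p = 0.014), pat1-1path1-4 (-0.55 ± 0.15, edgeR adjusted p = 0.0083) and pat1-1path2-1 (-0.42 ± 0.15, edgeR adjusted p = 0.035). In the triple mutant it was at -0.23 ± 0.15 and not called, with a 95% interval from -0.54 to 0.07. Without triple replicate 1, the highest of that genotype, the triple call was made (edgeR adjusted p = 0.0176). The pat1-1 call ended without control replicate 3 (edgeR adjusted p = 0.0524) or pat1-1 replicate 3 (0.0503), and the pat1-1path1-4 call without its replicate 2 (0.0519). The pat1-1path2-1 call ended without control replicate 1 (0.0842) or 3 (0.113) and without its own replicate 1 (0.0684) or 3 (0.143).

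CPD, the P450 enzyme that works beside DWF4 early in the route, was the most abundant of the 10. TPM was 151, 151 and 167 in the control, 202, 187 and 191 in path1-4path2-1, and in the triple mutant it was 131, 130 and 125. The triple mutant lay wholly below and path1-4path2-1 wholly above the control. CPD fell in the triple mutant by 0.31 ± 0.08 on the log2 scale (edgeR adjusted p = 0.0025) and rose in path1-4path2-1 by 0.25 ± 0.08 (edgeR adjusted p = 0.028). The rise ended without control replicate 1 (0.113) or 2 (0.103) and without any 1 of the 3 path1-4path2-1 libraries (edgeR adjusted p from 0.0534 to 0.0719). In the other genotypes CPD was between -0.11 and 0.12 and not called.

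ROT3 and CYP90D1 are the paired hydroxylases of the side chain, with overlapping activities. ROT3 TPM was 4.34, 4.84 and 3.60 in the control, 6.00, 6.06 and 5.88 in path2-1 and 2.98, 4.27 and 4.15 in the triple mutant. The path2-1 libraries lay above the control and the triple libraries overlapped it. ROT3 was called in no genotype against the control. In path2-1 it was at 0.40 ± 0.16 (edgeR adjusted p = 0.27).

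CYP90D1 TPM was 5.00, 4.18 and 4.14 in the control, 3.89, 3.44 and 3.80 in path1-4path2-1, and in the triple mutant it was 6.64, 7.73 and 5.95. Every triple library lay above every control library, and every path1-4path2-1 library lay below them. The triple mutant also overlapped path2-1, at 5.14, 5.10 and 6.31. CYP90D1 rose in the triple mutant (log2 fold change 0.58 ± 0.10, edgeR adjusted p = 9.3e-05) and was the only 1 of the 10 that rose there. In path1-4path2-1 it fell (-0.31 ± 0.11, edgeR adjusted p = 0.044), a call that ended in 13 alternatives, without any 1 control library (adjusted p up to 0.167) or any 1 of its own libraries (up to 0.121).

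BR6OX1 and BR6OX2 carry out the C-6 oxidation that yields castasterone, and BR6OX2 also makes brassinolide from it. BR6OX2 TPM was 21.1, 18.2 and 18.1 in the control, 19.1, 21.7 and 24.4 in path1-4 and 23.2, 24.2 and 27.8 in path2-1. It was 14.7, 13.5 and 14.4 in pat1-1, 12.7, 11.3 and 12.4 in pat1-1path1-4 and 11.2, 11.8 and 13.7 in pat1-1path2-1. It was 22.8, 17.4 and 20.3 in path1-4path2-1, and in the triple mutant it was 7.09, 6.84 and 5.92. The libraries thus fell into 3 levels that did not overlap: the 4 genotypes without pat1-1 on top, the single and doubles with pat1-1 in the middle, and the triple mutant lowest. BR6OX2 fell in pat1-1 (log2 fold change -0.40 ± 0.09, edgeR adjusted p = 0.0043), in pat1-1path1-4 (-0.66 ± 0.09, edgeR adjusted p = 3.6e-05) and in pat1-1path2-1 (-0.63 ± 0.09, edgeR adjusted p = 4.9e-05). In the triple mutant it fell by 1.55 ± 0.10 (edgeR adjusted p = 2.1e-10), with a 95% interval from -1.76 to -1.35. These calls held in every alternative. In path1-4path2-1 it was at 0.03 ± 0.09 and not called.

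BR6OX1 TPM was 0.571, 0.907 and 0.843 in the control, 1.00, 0.929 and 0.999 in path1-4, 0.483, 0.257 and 0.502 in path1-4path2-1, and in the triple mutant it was 0.193, 0.237 and 0.233. In TPM the triple libraries lay below all others, but only narrowly, and in counts, at 7, 9 and 9, they did not. Replicate 2 of pat1-1path1-4 held 9 counts and replicate 2 of path1-4path2-1 held 8, each at 0.257 TPM. The control libraries held 18, 32 and 30 counts. BR6OX1 fell in the triple mutant by 1.83 ± 0.33 on the log2 scale (edgeR adjusted p = 0.00013) and in path1-4path2-1 by 0.92 ± 0.29 (edgeR adjusted p = 0.031). The path1-4path2-1 call ended without control replicate 2 (0.115) or 3 (0.0922), without its own replicate 1 (0.0532) or 2 (0.108), and with only the compared genotypes fitted (0.0868). In pat1-1path2-1 it was at -0.78 ± 0.30 (edgeR adjusted p = 0.051) and in pat1-1path1-4 at -0.70 ± 0.30 (edgeR adjusted p = 0.079). Leaving out control replicate 1 brought both under the threshold (0.0252 and 0.0373). The ratio of BR6OX2 to BR6OX1 TPM was 26.1 ± 9.34 (SD, n = 3) in the control and 30.4 ± 5.85 in the triple mutant. In path1-4path2-1 it was 51.8 ± 14.2. That range, 40.5 to 67.7, did not overlap the control but overlapped pat1-1path1-4, at 20.6 to 44.0. It rests on 8 to 25 counts of BR6OX1, and its highest value came from the library with 8. The longest identical run between their exons was 32 bases, against at most 18 for any other pair of the 10.

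BAS1, the inactivating hydroxylase, had TPM of 17.0, 13.7 and 14.8 in the control, 11.9, 10.3 and 11.3 in pat1-1path2-1 and 13.1, 10.5 and 10.0 in the triple mutant. Both genotypes lay wholly below the control. BAS1 fell in pat1-1path2-1 (log2 fold change -0.41 ± 0.13, edgeR adjusted p = 0.017) and in the triple mutant (-0.46 ± 0.13, edgeR adjusted p = 0.0059). The pat1-1path2-1 call ended without control replicate 1 (0.0715) or its own replicate 2 (0.0664). In pat1-1 alone the level was near the control, at 0.02 ± 0.13.

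**Figure D2:**
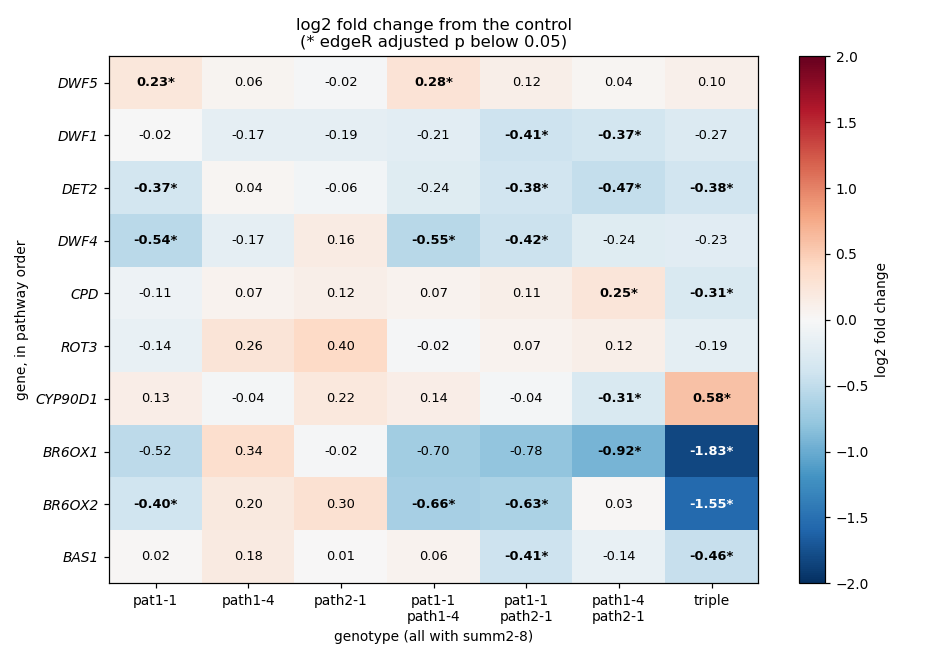
Log2 fold change from the control (colour, with the value written in each cell) of the 10 genes in pathway order (rows) in the 7 other genotypes (columns); an asterisk marks an edgeR adjusted p below 0.05. No asterisk stands in the path1-4 and path2-1 columns, and BR6OX2 carries -1.55 and CYP90D1 0.58 in the triple mutant.

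By genotype, against the same 3 control libraries, pat1-1 had 4 of 10 genes called, 1 higher and 3 lower, against 22.9% of all tested genes (12.0% higher, 10.9% lower). The pat1-1path1-4 double had 3, with 1 higher and 2 lower, against 31.2% of all genes (15.8% higher, 15.4% lower). The pat1-1path2-1 double had 5, all lower, against 32.6% (15.9% higher, 16.7% lower). The path1-4path2-1 double had 5, with 1 higher and 4 lower, against 19.5% (9.18% higher, 10.3% lower), or 3958 of 20346 genes. It had only 1, DET2, when just the compared genotypes were fitted, and 3 with no filter on low counts. Calls over all genes also fell there, to 2696 of 19513 and 3474 of 28486. The count was 1 without control replicate 2 or its own replicate 1, and 2 without control replicate 3 or its own replicate 2 or 3. It was 3 without control replicate 1, pat1-1 replicate 3 or any 1 of the pat1-1path1-4 libraries. Over all genes these fits called from 2448 of 20550 (without its own replicate 3) to 3868 of 20556 (without pat1-1 replicate 3). In pat1-1 the count was 2 without control replicate 3, beside 3689 of 20557 genes over all. It was 3 or 4 without any other library, beside 2700 to 5057 genes over all. In pat1-1path2-1 the count was 3 without control replicate 3 (5577 of 20557 genes over all) or its own replicate 1 (5011 of 20556).

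The singles path1-4 and path2-1 had 0 of 10 genes called with edgeR, against 0.177% and 0.0197% of all tested genes. DESeq2 also called 0, but it gave DWF4 no adjusted p in path2-1, so its 0 there is not out of all 10. At an unadjusted edgeR p under 0.05 there was 1 gene of the 10 in path1-4 and 3 in path2-1. Over all 20346 tested genes there were 2135 and 2832. In path2-1 BR6OX2 was at 0.30 ± 0.09 (edgeR adjusted p = 0.20), with a 95% interval from 0.11 to 0.49.

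What the last mutation added was compared between the triple mutant and each double. BR6OX2 fell by 0.89 ± 0.10 against pat1-1path1-4 (edgeR adjusted p = 4.0e-06), by 0.92 ± 0.10 against pat1-1path2-1 (5.4e-07) and by 1.58 ± 0.10 against path1-4path2-1 (1.2e-10). CYP90D1 rose by 0.44, 0.62 and 0.89 and CPD fell by 0.38, 0.42 and 0.56 against the same doubles, all called (edgeR adjusted p at most 0.0046). BR6OX1 fell by 1.13, 1.05 and 0.90 (edgeR adjusted p = 0.031, 0.027 and 0.037), with each of these calls ending without any 1 of the triple libraries (adjusted p from 0.0514 to 0.0948). They also ended without replicate 1 or 3 of pat1-1path1-4 (0.127 and 0.125), replicate 2 or 3 of pat1-1path2-1 (0.0563 and 0.125), and replicate 1 or 3 of path1-4path2-1 (0.108 and 0.128), each in the comparison with that double. The BR6OX1 call against path1-4path2-1 was also lost with DESeq2 (adjusted p = 0.070) and with the length trend removed (edgeR adjusted p = 0.056). Of the 10 genes 5, 4 and 5 were called in these comparisons, where 16.8%, 35.8% and 49.1% of all tested genes were.

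Between doubles and singles, adding path1-4 to pat1-1 left 0 of 10 genes called with edgeR and 0 with DESeq2, against 0.256% of all tested genes called. At an unadjusted edgeR p under 0.05 there were 2 of the 10, beside 1825 of all 20346 tested genes. Adding path2-1 to pat1-1 called 3 genes, against 21.7% of all: CPD rose by 0.22 ± 0.08, DWF1 fell by 0.39 ± 0.13 and BAS1 fell by 0.43 ± 0.13 (edgeR adjusted p = 0.043, 0.031 and 0.020), and each of these calls ended without at least 3 of the libraries in turn, pat1-1 replicate 2 among them for all 3 (0.057, 0.123 and 0.0789). Adding path2-1 to path1-4 called 2, against 18.3% of all, and both held in every alternative: BR6OX1 fell by 1.26 ± 0.29 and DET2 by 0.51 ± 0.10 (edgeR adjusted p = 0.0050 and 0.0011). Adding path1-4 to path2-1 called 4, all lower, against 20.6% of all: CYP90D1 by 0.53 ± 0.10 and DET2 by 0.41 ± 0.10 in every alternative, and BR6OX1 by 0.90 ± 0.29 and BR6OX2 by 0.27 ± 0.09 (edgeR adjusted p = 0.033 and 0.037). The last 2 calls ended without path2-1 replicate 3 (0.101 and 0.198) or path1-4path2-1 replicate 2 (0.123 and 0.184), and in other alternatives.

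The effect of pat1-1 can be read in 4 backgrounds. For BR6OX2 it was -0.40 in the control background, -0.85 in path1-4, -0.93 in path2-1 and -1.58 in path1-4path2-1, called in each. In these comparisons 22.9%, 22.1%, 38.6% and 49.1% of all tested genes were called. For CYP90D1 it was 0.13, 0.18, -0.25 and 0.89, called only in the last. For CPD it was -0.11, 0.00, -0.01 and -0.56, also called only in the last. For DWF4 it was -0.54, -0.38, -0.58 and 0.01, called in the control and path2-1 backgrounds, and DET2 had -0.37, -0.28, -0.33 and 0.09, called in the first 3. The DET2 call in path2-1 ended without path2-1 replicate 3 (edgeR adjusted p = 0.0709), and the one in path1-4 ended in 9 alternatives, most of all without path1-4 replicate 3 (0.216).

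Differences between these effects were tested directly. The effect of pat1-1 in path1-4path2-1 less its effect alone, a comparison added after the values were seen, was -1.17 ± 0.13 for BR6OX2 (edgeR adjusted p = 7.8e-06), 0.77 ± 0.15 for CYP90D1 (0.0012), -0.45 ± 0.11 for CPD (0.0069) and 0.46 ± 0.14 for DET2 (0.023). For DWF4 it was 0.55 ± 0.21 (edgeR adjusted p = 0.075). That made 4 of 10 genes called, against 18.4% of all tested genes. The DET2 difference ended without pat1-1 replicate 1 (0.0555), path1-4path2-1 replicate 2 (0.0506) or 3 (0.0528), or triple replicate 3 (0.0679).

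The pairwise interactions, double less both singles plus the control, were tested in the same fit. BR6OX2 was called for pat1-1 with path2-1 (-0.52 ± 0.13, edgeR adjusted p = 0.012), the only 1 of the 10 where 14.7% of all genes were. For path1-4 with path2-1, where 8.23% of all genes were called, the 3 calls were BR6OX2 (-0.47 ± 0.13, edgeR adjusted p = 0.030), CYP90D1 (-0.49 ± 0.15, 0.049) and DET2 (-0.45 ± 0.14, 0.045). Those 3 calls ended in 8, 23 and 18 alternatives, among them the loss of control replicate 2 (0.0733, 0.108 and 0.098) or control replicate 3 (0.0717, 0.108 and 0.0955). For pat1-1 with path1-4 edgeR called 0 of 10 and DESeq2 0, against 0.0442% of all genes called. At an unadjusted edgeR p under 0.05 there was 1 of the 10, beside 1271 of all 20346 tested genes. In the triple mutant BR6OX2 differed from the sum of the 3 single effects by -1.64 ± 0.19 (edgeR adjusted p = 5.7e-05), the 1 member called where 6.61% of all genes were.

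**Figure D3:**
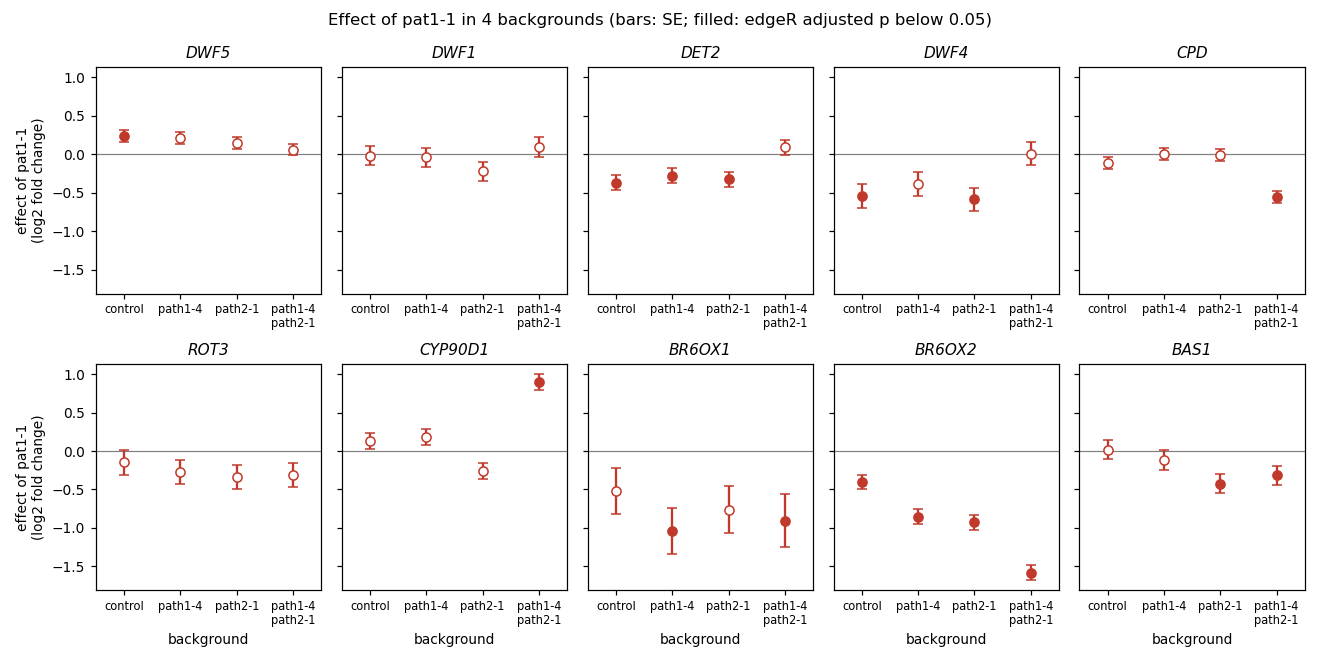
Effect of pat1-1 on each gene shown (log2 fold change, vertical axes) in the control, path1-4, path2-1 and path1-4path2-1 backgrounds (horizontal axes); bars are SE and filled points have an edgeR adjusted p below 0.05. BR6OX2 goes from -0.40 to -1.58 across the backgrounds, and CYP90D1 stands at 0.89 in path1-4path2-1.

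Averaged over the backgrounds, comparing the 12 libraries with a mutation to the 12 without it, pat1-1 changed 9 of 10 genes, 7 lower and 2 higher, where 57.4% of all tested genes were called (27.9% higher, 29.4% lower). The average effect of pat1-1 was -0.94 ± 0.05 for BR6OX2 (edgeR adjusted p = 3.7e-12), -0.81 ± 0.16 for BR6OX1 (0.00017), -0.37 ± 0.08 for DWF4 (0.00025) and -0.27 ± 0.08 for ROT3 (0.0073). DET2, BAS1 and CPD fell by 0.22, 0.21 and 0.17, CYP90D1 rose by 0.24 and DWF5 by 0.16, and DWF1, at -0.05 ± 0.06, was not called. The averages of CPD and CYP90D1 rest largely on the path1-4path2-1 background, the only background where pat1-1 was called for either. The average effect of path1-4 called BR6OX2 alone (-0.31 ± 0.05, edgeR adjusted p = 0.00021), against 9.99% of all genes. In path1-4 alone, however, BR6OX2 was at 114% of the control TPM and not called. The average effect of path2-1 called 5 genes, all lower, against 22.7% of all (10.6% higher, 12.1% lower): BR6OX1 (-0.67), BAS1 (-0.32), BR6OX2 (-0.25), DWF1 (-0.21) and DET2 (-0.18), the last no longer called with the length trend removed (edgeR adjusted p = 0.0507). These averages do not describe each background. In path2-1 alone 0 of 10 genes were called against the control. There the mean TPM was 106% of the control for BR6OX1, 107% for BAS1, 131% for BR6OX2, 93.7% for DWF1 and 102% for DET2.

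The rest of the brassinosteroid system was read from lists of other genes by the same fit in the triple mutant, where 45.4% of all tested genes were called, 22.8% higher and 22.6% lower. Genes of sterol synthesis other than DWF5 and DWF1, side branches included, moved in both directions, and their called share was near that background: 4 of 18 rose, 5 fell and 9 were not called, with a median log2 fold change of -0.12 beside 0.00 over all tested genes. SMT1, the methyltransferase that starts the side chain of plant sterols, rose by 0.61 ± 0.12 (edgeR adjusted p = 0.00021), from 70.1 ± 7.80 to 109 ± 12.8 TPM (SD, n = 3). CYP710A1, which makes stigmasterol on a side branch, rose by 1.50 ± 0.34, whereas SMO2-1 (a demethylation step) fell by 0.53 ± 0.09 and HYD1 (sterol isomerase) fell by 0.32 ± 0.07. Of 5 tested genes of other inactivation routes, 1 rose and 1 fell, also near the background. BAT1, an acyltransferase-like gene, rose by 1.76 ± 0.36 (edgeR adjusted p = 0.00043), from a low 0.348 ± 0.0616 TPM to 1.21 ± 0.620, and BEN1, a reductase-like gene, fell by 1.11 ± 0.13 (edgeR adjusted p = 1.2e-06).

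Of 22 signalling genes tested, 3 rose, 8 fell and 11 were not called, with a median of -0.05, beside 45.4% of all tested genes called (22.8% higher, 22.6% lower). BIM1, a partner of BES1, fell by 1.16 ± 0.07 (edgeR adjusted p = 6.4e-11), from 79.2 ± 1.75 to 35.9 ± 2.18 TPM. BEH4, a homologue of BZR1, fell by 0.99 ± 0.07 and BES1 fell by 0.62 ± 0.08, while BSK1, a kinase below the receptor, rose by 0.67 ± 0.07. BZR1, at -0.09, and BIN2, the kinase that inhibits it, at 0.07, were not called. Of 4 tested regulators of the synthesis genes, PIF4 fell by 0.71 ± 0.07, TCP1, an activator of DWF4, fell by 1.80 ± 0.40 from 1.33 ± 0.156 to 0.387 ± 0.0991 TPM, PIF5 rose by 0.22 ± 0.07 and AT1G29160 was not called.

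Of 11 genes known to answer the hormone, 6 fell, 1 rose and 4 were not called, with a median of -0.52, beside 22.6% of all tested genes lower and 22.8% higher. IAA19, an auxin and brassinosteroid response gene, fell by 1.77 ± 0.17 (edgeR adjusted p = 5.3e-08), from 31.8 ± 4.44 to 9.49 ± 1.30 TPM. The bHLH genes BEE1 and BEE3, which early brassinosteroid signalling raises, fell by 1.40 ± 0.10 and 1.07 ± 0.08. IBH1, a growth inhibitor that BZR1 represses, also fell, by 1.10 ± 0.12. BEE2 rose by 0.70, and TCH4, a cell wall enzyme gene, was at 0.53 and not called.

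**Figure D4:**
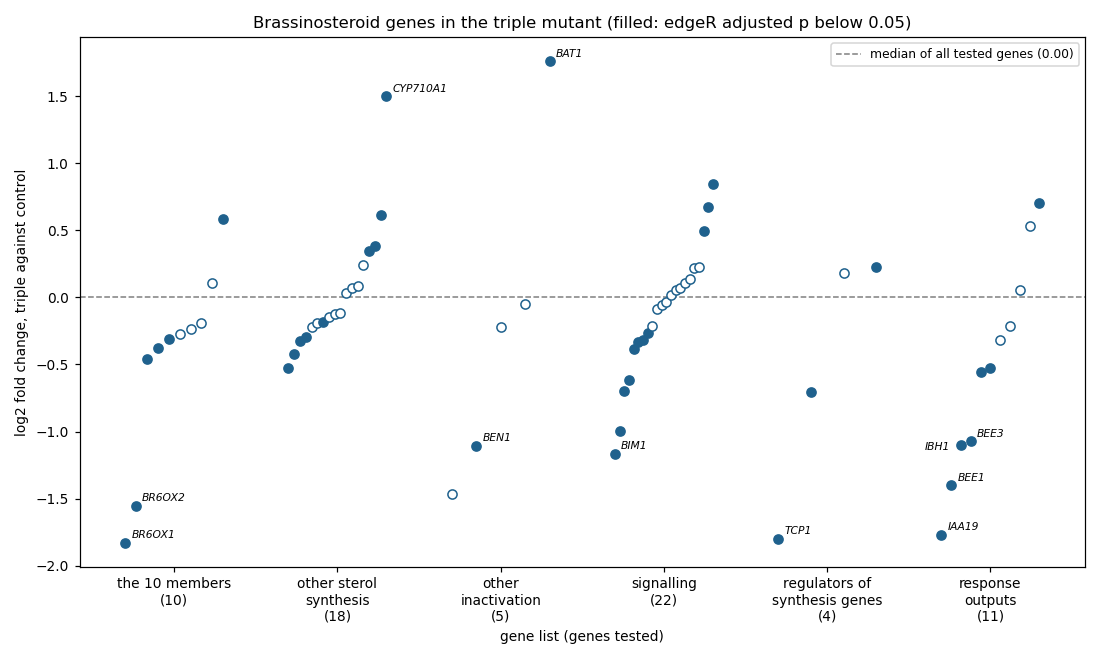
Log2 fold change of the triple mutant against the control (vertical axis) for the 10 synthesis and breakdown genes and 5 other lists of brassinosteroid genes (horizontal axis, genes tested in parentheses); each point is 1 gene, filled where the edgeR adjusted p is below 0.05. BR6OX1 and BR6OX2 lie at -1.83 and -1.55, IAA19 lies at -1.77 and BAT1 at 1.76.

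Over the 24 libraries, and among 6742 named genes expressed at a mean log2 CPM of 1 or more, those whose pattern was most like BR6OX2 were scpl35 (Pearson r = 0.978), SCPL51 (0.976) and IAA29 (0.968), as a description across genotypes that share libraries. IAA29, an auxin response gene, went from 83.3 TPM in the control to 18.6 in the triple mutant, and scpl35, a carboxypeptidase-like gene, from 44.0 to 16.1. For BR6OX1 they were AIR12 (0.874), ATMKK9 (0.865) and WAG1 (0.861). For CYP90D1 they were ATELF5A-3 (0.895), UBC11 (0.886) and ATFD3 (0.884), and for DET2 CYP71B29 (0.880), BRH1 (0.869) and MYBC1 (0.862). For CPD they were ENP (0.884), DET3 (0.875) and PHYB (0.872), and the closest to DWF1 was LHB1B1 (0.902), an antenna protein gene. The weakest best match was that of ROT3, with CUT1 at 0.823.

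The genes lie apart in the genome. In RefSeq TAIR10.1 BR6OX2 spans chr3:11810726-11813883 (plus strand), BR6OX1 chr5:15594674-15598089 (minus), CYP90D1 chr3:4497893-4500920 (minus), DWF4 chr3:18813949-18817405 (minus) and CPD chr5:1702640-1706948 (minus). DET2 spans chr2:15921136-15922321 (minus), ROT3 chr4:17187528-17192507 (minus), DWF1 chr3:6879524-6882315 (minus), DWF5 chr1:18681932-18685652 (minus) and BAS1 chr2:11380463-11383821 (plus). Exons of 4 of them overlap a neighbour's, by 83 bases in ROT3 (3.5% of its exon bases), 35 in DET2 (3.2%), 20 in CPD (1.0%) and 20 in DWF1 (0.7%). Whether the counting used strand is not stated. The neighbours of ROT3, DET2 and CPD lie on the opposite strand, so without strand reads in these few bases could belong to either gene, and that of DWF1 lies on the same strand, where strand would not separate them.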

How the data were processed

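RNA sequencing of 24 libraries (8 genotypes, 3 libraries each) was analysed. Deposited tables give raw counts per gene and, separately, TPM computed by the authors. Reads were aligned with STAR 2.5.1b to build TAIR10, per the submitters' processing notes. How reads were counted, with which annotation and strand setting, is not given in the sources used here. Members and gene lists alike were chosen with earlier results of these data known, and the comparison of the pat1-1 effect in path1-4path2-1 with its effect alone was added after its values were seen. Each list gene was used where its identifier was in the counts and the annotations gave it to no other named gene (94 of 96).

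Levels are the deposited TPM. Tests start from the counts, in edgeR 4.0.16 (limma 3.58.1, R 4.3.3): filterByExpr (20346 of 37336 genes kept), TMM scaling, 1 quasi-likelihood model with a term per genotype over all libraries, two-sided F tests for 24 contrasts, and Benjamini-Hochberg adjustment over all genes tested, with a threshold of 0.05. The procedure was tested on simulated data. A standard error is the log2 fold change divided by the square root of F, and intervals are 95%. Named genes are all members, the mutated loci, up to 4 called genes per other list by smallest adjusted p in the triple mutant, and the 3 named genes with the most similar log2 CPM pattern for each member; not every one is printed, and a few list genes were added after their values were seen. Alternatives were RLE factors, no filter, DESeq2 1.42.0, a fit restricted to the compared genotypes, removal of organelle genes, removal of a trend with transcript length, leaving out both path2-1 doubles, and leaving out each library in turn. Library totals of 14187145 to 39180748 counts leave BR6OX1, at 7 to 36 counts, the least precise. Gene positions and upstream windows are from RefSeq TAIR10.1. The labels state no pairing and library numbers run from 1 to 24, so no pairing was used.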

Additional observations from a re-analysis of the deposited data

Results flagged for a closer look

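Several genes had an effect that differed between genotype backgrounds by a direct test of the difference, all on the log2 scale and from the edgeR fit. For pat1-1 combined with path2-1, the BR6OX2 interaction was -0.52, the double being lower than both single effects together would give. For path1-4 combined with path2-1, the interaction was -0.47 for BR6OX2, -0.49 for CYP90D1 and -0.45 for DET2, and these 3 calls were lost in many of the alternatives. In the triple mutant BR6OX2 departed from the sum of the 3 single effects by -1.64. The effect of pat1-1 in path1-4path2-1 less its effect alone was -1.17 for BR6OX2, 0.77 for CYP90D1, -0.45 for CPD and 0.46 for DET2. That comparison was added after the values were seen, and its DET2 call was lost without some of the single libraries. With 3 libraries per genotype, single libraries were not tested for standing apart from their group.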

How the results depend on the processing

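Of 240 member comparisons 77 were called, and 48 of those kept the call and direction in every alternative, 29 lost the call in at least 1, and 0 reversed. A further 19 became called in at least 1 alternative. Over the contrasts pooled here, 0.0197% to 57.4% of all tested genes were called, so these counts have no single background. The number of members called in path1-4path2-1 against the control went from 5 to 1 with only the compared genotypes fitted and to 3 with no filter. Over all genes it went from 3958 of 20346 to 2696 of 19513 and 3474 of 28486. The number called in the interactions and the departure of the triple mutant went from 5 to 2 with only the compared genotypes, and to 3 with no filter or with RLE factors. The shares of all genes called in those fits are not given here. Leaving out 1 library at a time gave 2 to 4 called members in pat1-1, 2 to 4 in pat1-1path1-4, 3 to 6 in pat1-1path2-1, 1 to 5 in path1-4path2-1 and 6 to 7 in the triple mutant. Of the 20526 to 20568 genes tested, those fits called 2700 to 5057 in pat1-1, 4408 to 6758 in pat1-1path1-4 and 5011 to 7055 in pat1-1path2-1. In path1-4path2-1 they called 2448 to 4265, and in the triple mutant 7931 to 9587. The path1-4 and path2-1 singles had 0 called members in each of these fits. Without 1 library, the triple mutant against the doubles had 10 to 14 and the doubles against their singles 12 to 19. The interactions had 2 to 6, the average effects 15 to 16 and the added comparison 3 to 4. The other lists had 30 to 35 called genes. From the doubles to the other lists, most counts pool several contrasts or lists, and none has a share of all genes beside it. They show only how far the counts move. Leaving both path2-1 doubles out of the fit ended 1 call and made none, among comparisons that do not use them. With CPM in place of TPM, 3 of 70 levels relative to the control moved by more than 1 SD. No paired analysis was run because the labels state no pairing. The library numbers run from 1 to 24 and no genotypes share one, so whether libraries were paired could not be checked. Depth limits BR6OX1 most, at 7 to 36 counts per library, and 3 libraries per genotype limit all comparisons.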
